A study of Mus musculus with 14 samples.

Results

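Histone lysine methyltransferases and demethylases were examined in mouse APT small-intestinal tumor organoids, cultures of tumor epithelium grown as small gut-like structures, that carried short hairpin RNAs against Suv4-20h2. The genes were chosen by symbol in the GENCODE M21 annotation: Kmt2a to Kmt2e, Ezh1 and Ezh2, Nsd1 to Nsd3, and symbols that begin with Setd, Smyd, Prdm or Kdm followed by a number, with Kdm from 2 to 8 and Smyd from 1 to 5. The symbols of 55 genes matched, and 48 of these were listed in both kinds of count file, out of 17487 genes that both list. All 55 were listed in the files of set 1 and 48 in those of set 2. Among those listed in set 1 alone, Prdm14 had 0, 23 and 41 counts in hairpin 1 libraries and 27, 13 and 21 in control 1 libraries. Among the 48 members are Kdm4dl and the antisense transcript Kdm6bos, which are listed by their symbols and to which no enzyme activity is assigned here.

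Hairpin 1 targeted exon 4 of Suv4-20h2 and hairpin 2 targeted exon 9. Each hairpin line was set against shCtrl organoids of its own set, which are titled controls, and no control library was shared. Set 1 held 3 libraries of hairpin 1 and 3 of control 1, and set 2 held 4 of hairpin 2 and 4 of control 2. Every group, controls included, received 0.5 µg/ml doxycycline for 4 days to induce the hairpins, and all carry the same treatment label, which names chromatin compaction. The labels call each hairpin line a clone, so the hairpin, the clone and the set cannot be told apart. Whether each library stems from a culture of its own is not stated, and the p-values thus rest on a spread that may be technical. The genotype behind the name APT is not spelled out in the labels.

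Lysine methylation of histone H3 marks the state of a gene. H3K4 methylation, written by enzymes of the KMT2 and SETD1 families, lies at active promoters and enhancers. H3K36 methylation, written by SETD2 and the NSD enzymes, lies over gene bodies, and H3K27 methylation, written by EZH1 or EZH2 within the Polycomb complex PRC2, lies over repressed genes. The KDM enzymes remove these marks or methylation of H3K9, and the SMYD and PRDM families hold further methyltransferases and DNA-binding regulators. Suv4-20h2 itself, listed as Kmt5c, methylates H4K20 in compact chromatin, so the comparison asks whether genes of the other marks moved when it was targeted.

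Kmt5c had 53.6, 64.3 and 56.1 CPM (counts scaled to library size) in hairpin 1 libraries, against 72.3, 75.8 and 67.3 CPM in control 1 libraries. It had 114, 111, 99.3 and 106 CPM in hairpin 2 libraries, against 129, 121, 116 and 128 CPM in control 2 libraries. The targeted gene was lower in every hairpin library than in every control library of its set, by log2 fold changes of -0.31 (SE 0.17) with hairpin 1 and -0.20 (SE 0.062) with hairpin 2, neither with an adjusted p under 0.05 (0.801 and 0.0977). Adjusted p-values are from edgeR's quasi-likelihood test with Benjamini-Hochberg adjustment over all genes tested, and a gene is said to be called where its adjusted p was under 0.05. With replicate number as a block, hairpin 2 gave an adjusted p of 0.00741.

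Total counts per library ran from 9272134 to 26284079. The markers of intestinal epithelium summed to 4361 to 5729 CPM in hairpin 1, 4699 to 5701 CPM in control 1, 3181 to 3393 CPM in hairpin 2 and 4168 to 4425 CPM in control 2, and none of the 8 was at 0. Markers of fibroblasts and smooth muscle summed to at most 2.32 CPM in set 1, with Dcn and Lum at 0 in set 1 and not listed in set 2. In set 2 these markers summed to 13.9 to 15.6 CPM in hairpin 2, above the 9.23 to 11.99 CPM in control 2. Of the 2 tested with hairpin 2, 1 was called higher (log2 fold change 0.55, adjusted p = 0.00938). The other had a log2 fold change of -0.69 and was not called. Blood cell markers summed to 6.36 to 55.0 CPM in hairpin 1, 9.50 to 39.4 CPM in control 1, 11.8 to 15.7 CPM in hairpin 2 and 14.2 to 20.5 CPM in control 2. The 1 tested had a log2 fold change of -0.10 with hairpin 1, or -1.92 without its replicate 1, and was not called. Replicate 1 of hairpin 1 stood apart. It held Cdh5, an endothelial cadherin, at 49.6 CPM, against 0.337 to 2.15 CPM in the other set 1 libraries. Emcn was at 0 in this replicate. In hairpin 2 all 5 enterocyte markers were called lower, with a summed level of 141 to 219 CPM against 404 to 453 CPM in control 2. Of the goblet cell markers 4 of 5 were called lower (median log2 fold change -0.84), and of the intestinal epithelium markers 5 of 8 (median -0.34), where 4.01% of all genes were. Of the 3 Paneth cell markers tested with hairpin 2, none was called. The enterocyte, goblet and Paneth cell lists hold genes that had moved with a hairpin in earlier results of these data. Their calls are therefore a description only. Hnf4a is in both the enterocyte and the epithelium list. In such bulk samples, fewer cells of a type and less RNA per cell cannot be told apart, and the part of cell makeup in the values below was not tested.

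Promoters of 33 of the 48 members, 44 start sites in all, were found in the RefSeq table for build GRCm38.p6, each from 250 bases before to 50 bases after the start. CG dinucleotides were frequent in them, with a median of 25.5 per promoter against 7 over all 32851 promoters in the table, and 88.6% of the members' promoters held 10 or more against 43.5% of all. These promoters belong to 27025 genes, more than were tested here. The members were not compared with the promoters of tested genes alone. The letters CG read the same on both strands and were searched with no other motif. A pair of members higher and a pair lower with hairpin 2 in the fit with the replicate block are printed below, to show this shared feature on both sides of the comparison. CG is in capitals. They lie at chr5:25498734-25499033 on the minus strand (Kmt2c, 56 CG), chr5:122989050-122989349 on the minus strand (Kdm2b, 28 CG, the outermost of 4 starts), chr11:101226414-101226713 on the minus strand (Ezh1, 23 CG) and chr8:95715663-95715962 on the plus strand (Setd6, 28 CG).
Kmt2c: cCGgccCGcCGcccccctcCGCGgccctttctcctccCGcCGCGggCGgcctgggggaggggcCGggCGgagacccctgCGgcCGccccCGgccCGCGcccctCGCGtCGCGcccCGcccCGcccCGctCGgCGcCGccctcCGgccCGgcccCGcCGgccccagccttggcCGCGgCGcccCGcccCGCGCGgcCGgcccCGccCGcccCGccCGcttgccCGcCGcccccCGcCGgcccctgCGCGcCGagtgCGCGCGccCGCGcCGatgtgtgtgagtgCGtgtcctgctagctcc
Kdm2b: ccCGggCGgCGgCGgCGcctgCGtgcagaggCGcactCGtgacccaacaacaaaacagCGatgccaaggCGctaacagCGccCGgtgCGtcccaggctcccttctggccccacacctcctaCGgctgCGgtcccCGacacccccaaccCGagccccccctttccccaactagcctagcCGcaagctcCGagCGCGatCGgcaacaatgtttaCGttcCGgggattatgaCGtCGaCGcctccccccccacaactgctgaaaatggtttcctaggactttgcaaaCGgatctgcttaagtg
Ezh1: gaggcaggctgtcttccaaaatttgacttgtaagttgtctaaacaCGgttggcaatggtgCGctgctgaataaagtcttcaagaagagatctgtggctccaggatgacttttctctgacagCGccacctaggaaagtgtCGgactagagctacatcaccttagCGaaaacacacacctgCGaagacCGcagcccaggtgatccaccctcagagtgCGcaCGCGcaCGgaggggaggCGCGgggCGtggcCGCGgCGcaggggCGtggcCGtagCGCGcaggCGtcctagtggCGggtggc
Setd6: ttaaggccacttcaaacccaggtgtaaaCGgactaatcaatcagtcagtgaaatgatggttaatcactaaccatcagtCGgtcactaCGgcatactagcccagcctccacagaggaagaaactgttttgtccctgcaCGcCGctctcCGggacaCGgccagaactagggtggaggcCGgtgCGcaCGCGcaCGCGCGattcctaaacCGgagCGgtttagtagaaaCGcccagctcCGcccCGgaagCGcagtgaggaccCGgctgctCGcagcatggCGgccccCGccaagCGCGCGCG
All 4 printed promoters held more CG than the median of 7 over all promoters, and the match is a description only. Setd1b and Nsd1, described below, are named without a promoter.

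Levels were compared between genes as CPM per kb of exon. With hairpin 2, Kdm6b averaged 50.2 and Prdm1 49.4 CPM per kb, against 45.8 and 44.7 in control 2, and Kdm5c and Kdm3a followed at 45.7 and 41.1 in hairpin 2, against 44.2 and 46.3 in control 2. In set 1, Kdm5c led with 35.6 CPM per kb in hairpin 1 against 25.6 in control 1, and Ezh2 had 22.0 against 21.7. The level of Kdm5c in hairpin 1 was 19.3 CPM per kb without replicate 1, below both control 1 and the 24.5 of Ezh2 in the same libraries. At the low end were Kdm4d, Kdm4dl and Prdm8, which failed the filter on low counts in both sets, and Prdm11, which failed it in set 1. This left 44 members tested for hairpin 1 and 45 for hairpin 2. Exons of 18 members share bases on the opposite strand with another gene and those of Kdm2b and Setd1a on the same strand. The libraries are stranded, but the counting setting is not given in the sources used here, so values of Setd1a (51.8% of its exon bases shared with Gm49388), Kdm6bos (34.0% with Kdm6b), Smyd2 (30.0% with Gm37422), Prdm8 (29.1% with A730035I17Rik) and Kdm3b (24.6% with Gm26538) are uncertain.

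With hairpin 1, no member was called higher or lower than in control 1. None of the 44 members tested had an adjusted p under 0.05, where 0 of all 13540 genes tested did (0.00%). None had an unadjusted p under 0.05 either, where 733 genes did (5.41%), and the lowest adjusted p among the members was 0.801. DESeq2 called 16 genes and limma voom 8, none of them a member. The members' log2 fold changes ran from -0.84 (Prdm16) to 0.92 (Prdm1) with a median of 0.11, beside 0.03 over all genes tested. In simulated counts of this set, 44.9% of genes changed 4-fold were recovered and 1.03% of those changed 2-fold, so most changes of such sizes were not detectable at this spread.

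**Figure D1:**
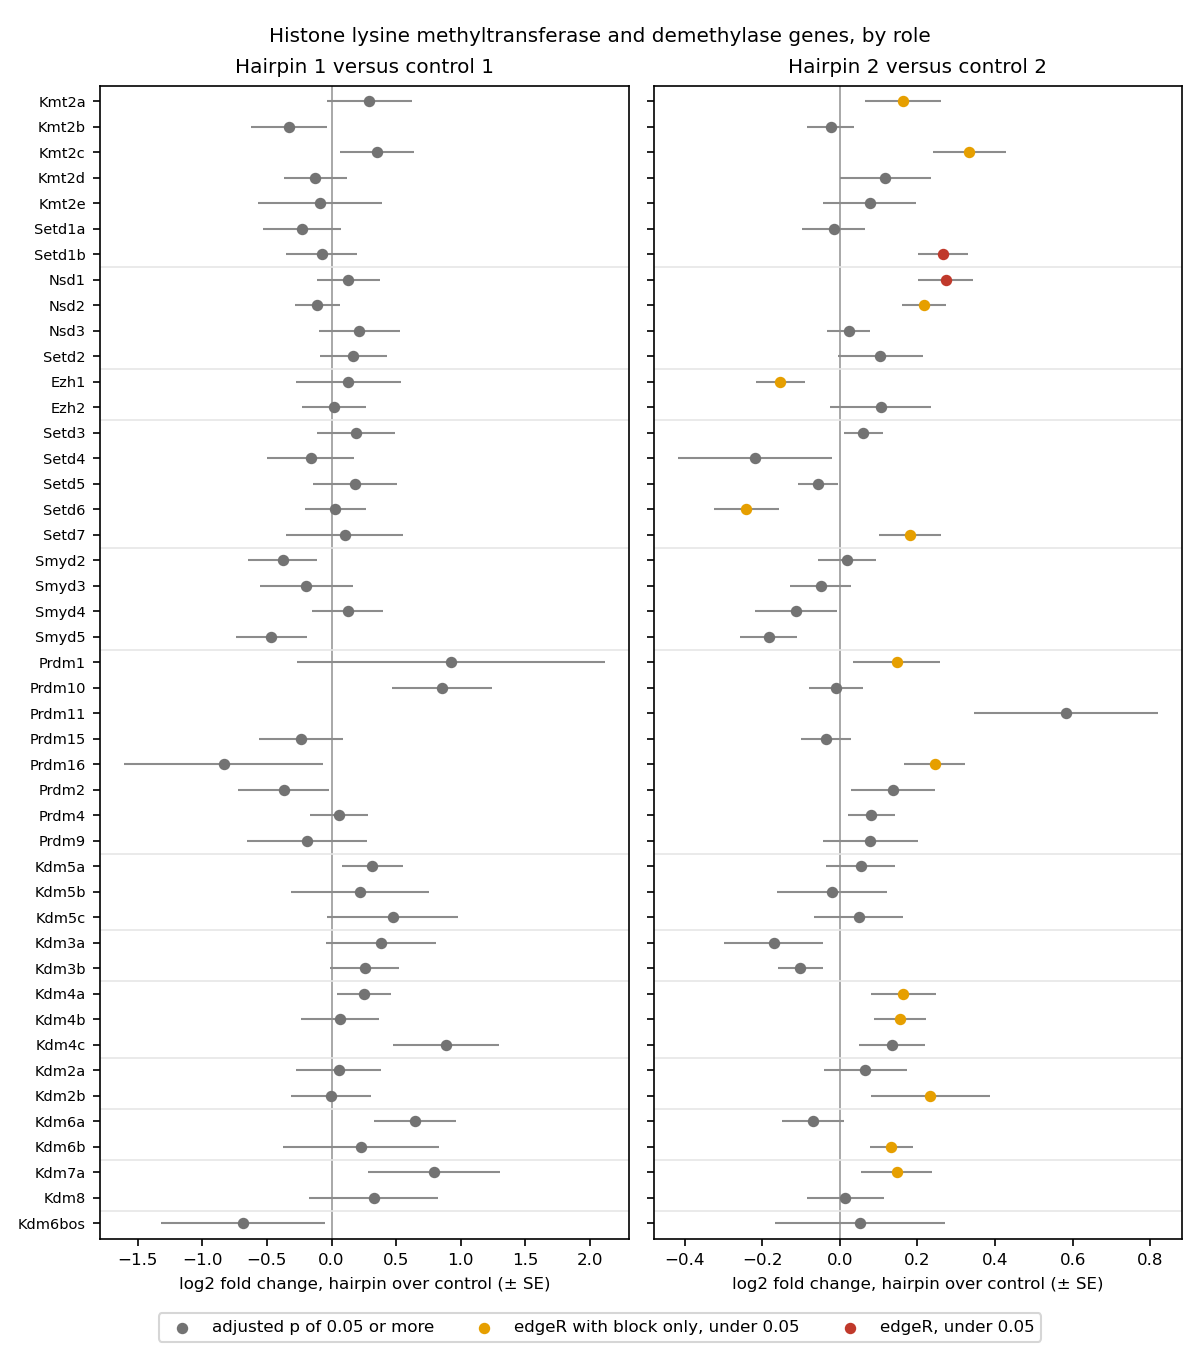
Log2 fold change of each tested member, hairpin over control, with hairpin 1 on the left and hairpin 2 on the right (x axes differ in range). Points are edgeR estimates, bars are ± 1 SE and thin lines part the roles, from H3K4 methyltransferases at the top to demethylases and Kdm6bos at the bottom. With hairpin 2, Setd1b and Nsd1 pass 0.05 in edgeR without the replicate block (red), and 13 more pass in edgeR with it (orange).

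The 5 members with the smallest p for hairpin 1 were Prdm10, Kdm4c, Kdm6a, Smyd5 and Kdm7a. Prdm10, a zinc finger protein of the PRDM family, had 40.0, 20.3 and 17.2 CPM in hairpin 1 libraries, against 16.9, 15.5 and 10.5 CPM in control 1 libraries. It was the only member whose groups did not overlap in set 1, with all hairpin 1 libraries above all of control 1, where 12.8% of genes tested did not overlap, 6.50% higher and 6.34% lower. The log2 fold change was 0.86 (SE 0.39, unadjusted p = 0.0611). Kdm4c, which removes methyl groups from H3K9 and H3K36, had 36.4, 20.6 and 15.1 CPM in hairpin 1 libraries, against 13.9, 16.6 and 8.49 CPM in control 1 libraries. Replicates 1 and 2 lay above all controls and replicate 3 among them, and the log2 fold change was 0.89 (SE 0.41).

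Kdm6a, an X-linked H3K27 demethylase, had 78.2, 44.0 and 37.1 CPM in hairpin 1 libraries, against 32.1, 40.2 and 29.4 CPM in control 1 libraries, a log2 fold change of 0.65 (SE 0.32). Kdm7a, which acts on H3K9 and H3K27, had 61.5, 20.8 and 19.0 CPM in hairpin 1 libraries, against 23.9, 22.0 and 12.5 CPM in control 1 libraries, a log2 fold change of 0.80 (SE 0.51). Replicate 1 was the highest library for both genes, and replicate 3 lay among the controls for both. Smyd5, of the SET and MYND domain family, had 28.9, 45.1 and 54.2 CPM in hairpin 1 libraries, against 52.9, 68.6 and 55.5 CPM in control 1 libraries, a log2 fold change of -0.47 (SE 0.27). Its lowest value was again that of replicate 1.

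**Figure D2:**
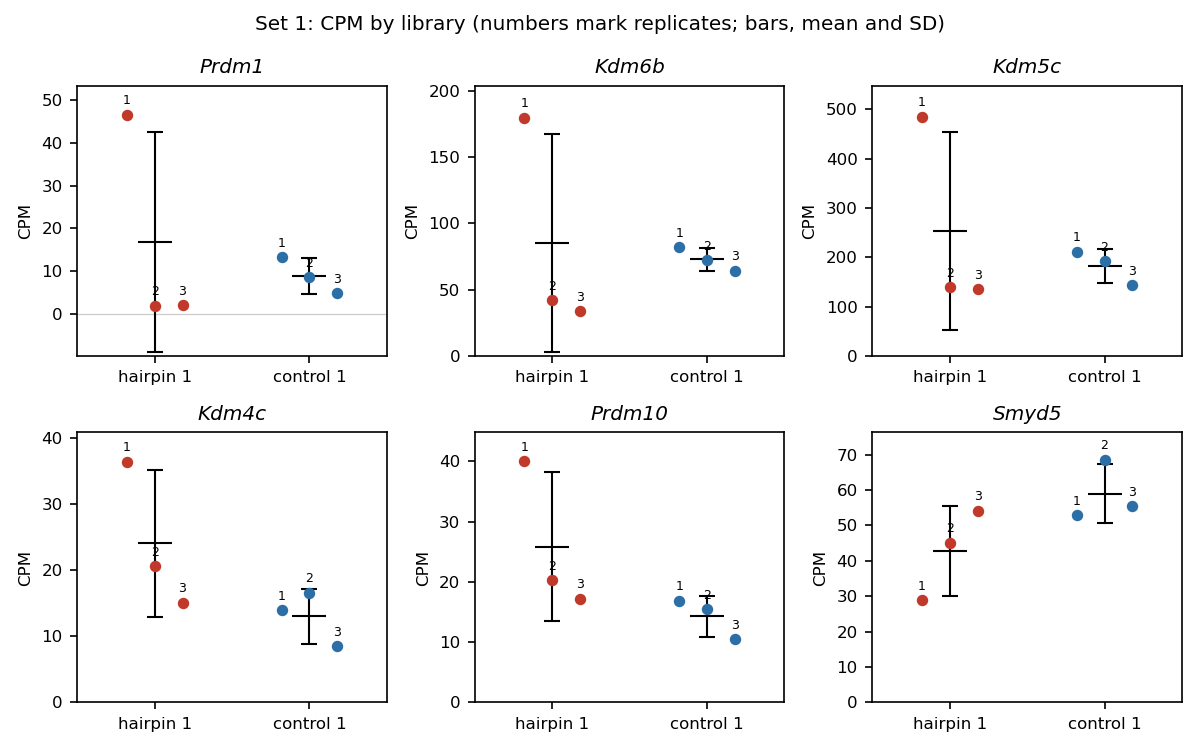
CPM of 6 members in each library of set 1, hairpin 1 on the left in red and control 1 on the right in blue, with replicate numbers beside the points and black bars for mean and SD (n = 3 each). Replicate 1 of hairpin 1 is the highest library for Prdm1 (46.6 CPM), Kdm6b (179.7 CPM) and Kdm5c (485 CPM) and the lowest for Smyd5 (28.9 CPM).

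Replicate 1 of hairpin 1 stood apart for the members too. Its members lay at a median of 0.57 above the control 1 mean on the log2 scale (pseudocount 0.5 CPM), with 36 of 44 above it. In replicates 2 and 3 the medians were -0.18 and -0.32, with 17 and 9 of 44 above the control mean. All genes averaging at least 5 CPM had medians between -0.020 and -0.0055 in these libraries. In replicate 1 the 4615 genes with 5 kb or more of exon had a median of 0.21 and the 5849 shorter genes -0.20. These medians were 0.011 and -0.041 in replicate 2 and, the other way round, -0.080 and 0.059 in replicate 3. In control 1 they were -0.022 and -0.0078 in replicate 1, 0.066 and -0.058 in replicate 2, and -0.067 and 0.040 in replicate 3. The members' exons had a median length of 8304 bases against 4103 for genes tested in set 1, and 37 of 48 members had 5 kb or more. Members took 0.397% of all counts in replicate 1, against 0.245% and 0.197% in the other hairpin 1 libraries and 0.231 to 0.280% in control 1. The part of this length trend in the members' values was not tested.

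**Figure D3:**
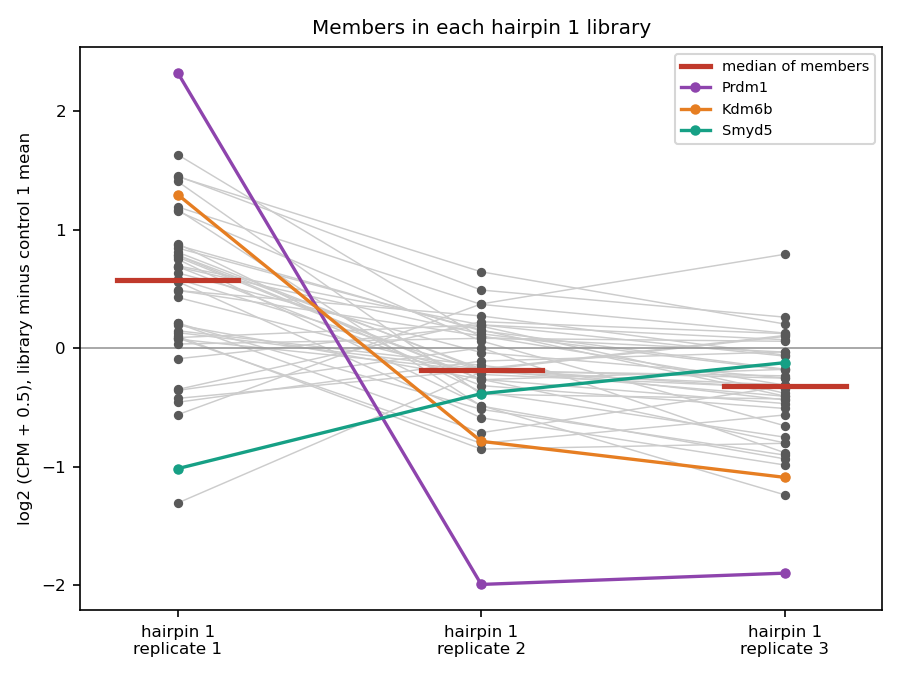
Log2 of CPM plus 0.5 in each hairpin 1 library minus the mean of control 1, for the 44 members tested in set 1, with grey lines joining a gene across libraries and red bars at the medians (0.57, -0.18 and -0.32). Prdm1 and Kdm6b lie far above 0 in replicate 1 and far below it in replicates 2 and 3, and Smyd5 lies below 0 in all 3, lowest in replicate 1.

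Demethylases followed the same pattern. Of the 14 tested, 13 lay above 0 with hairpin 1 (median 0.28), and without replicate 1 of hairpin 1 only 6 of 14 did (median -0.14). Kdm6b, the other H3K27 demethylase, had 179.7, 42.0 and 33.9 CPM in hairpin 1 libraries, against 81.8, 72.2 and 64.4 CPM in control 1 libraries. Kdm5c, an X-linked H3K4 demethylase, had 485, 139 and 135 CPM in hairpin 1 libraries, against 211, 192 and 144 CPM in control 1 libraries. Prdm1, a repressor that in mouse maintains the suckling-stage intestinal programme, had 46.6, 1.85 and 2.01 CPM in hairpin 1 libraries, against 13.3, 8.56 and 4.80 CPM in control 1 libraries. For each of these 3 genes, replicate 1 lay above all controls and replicates 2 and 3 lay below all controls.

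Without replicate 1 of hairpin 1 the members' median turned to -0.24, beside -0.02 over all genes tested, with 10 above 0 and 34 below. No member was called then either, where 1 of 13883 genes was (0.00720%), but 9 members had an unadjusted p under 0.05, where 2187 genes did (15.8%). Prdm1 had a log2 fold change of -2.20 (SE 0.48), in place of 0.92 with all libraries, at an adjusted p of 0.0939. Kdm6b had -0.94 (SE 0.20) in place of 0.23, also at an adjusted p of 0.0939. Kmt2e, a KMT2 family protein with a reader domain, had -0.83, and Kmt2b, which writes H3K4 methylation at promoters, had -0.70 in place of -0.33. Kdm5b had -0.70 in place of 0.22. The direction for Prdm1, Kdm6b and Kdm5b thus turned with 1 library. The members with the smallest p in all libraries came closer to 0: Prdm10 had 0.39 in place of 0.86, Kdm4c 0.45 in place of 0.89, Kdm6a 0.26 in place of 0.65, Kdm7a 0.03 in place of 0.80 and Smyd5 -0.25 in place of -0.47.

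With hairpin 2, 2 of 45 members tested were called, both higher than in control 2: Setd1b, which writes H3K4 methylation at promoters, and Nsd1, which writes H3K36 dimethylation. Over all genes, 854 of 14126 were called (6.05%), 288 of them higher (2.04%) and 566 lower (4.01%). The members' share, 4.44%, lay below the 6.05% in either direction and above the 2.04% called higher, and it rests on 2 genes. An unadjusted p under 0.05 was reached by 12 members and by 2793 genes (19.8%). The members' log2 fold changes ran from -0.24 (Setd6) to 0.58 (Prdm11) with a median of 0.07, beside 0.00 over all genes tested. The spread was far smaller than in set 1. In simulated counts of set 2, 85.7% of genes changed 2-fold were recovered, but no smaller change was simulated. Every tested member changed by less than 2-fold, so this share does not cover changes of the members' size.

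The replicate number was also used as a block in set 2, though only replicate 4 stood out in how same-numbered libraries deviated together (correlation 0.598). Among replicates 1 to 3, same numbers correlated at 0.153 to 0.249 and unlike numbers at 0.108 to 0.216. Libraries of the same number are called pairs below, which rests on the number alone. With this block 15 of 45 members were called, 13 higher and 2 lower, beside 20.4% of all genes (10.2% higher and 10.1% lower). With the block the members' median was again 0.07. Of the genes grouped as methyltransferases of H3K4, H3K36 and H3K27, 5 of 13 were called higher and 1 lower with the block. Among demethylases 5 of 14 were called higher and 0 lower, with 7 at an unadjusted p under 0.05. Over all 45 members that threshold was passed by 22, where 33.3% of genes passed it. The other members called were in the SETD group (1 higher, 1 lower) and among PRDM genes (2 higher).

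Among H3K4 methyltransferases, Setd1b had 70.7, 73.5, 70.5 and 68.3 CPM in hairpin 2 libraries, against 60.6, 59.6, 62.2 and 53.0 CPM in control 2 libraries. Its groups did not overlap, and the log2 fold change was 0.27 (SE 0.064, adjusted p = 0.0372). In set 1, Setd1b had 30.4, 36.9 and 24.8 CPM in hairpin 1 libraries, against 29.7, 42.0 and 25.4 CPM in control 1 libraries, a log2 fold change of -0.08 (SE 0.28), and the difference between hairpins was not called (adjusted p = 0.599). Kmt2c, which methylates H3K4 at enhancers and whose promoter is printed above, had 114, 146, 145 and 126 CPM in hairpin 2 libraries, against 104, 103, 119 and 94.8 CPM in control 2 libraries. Its replicate 1 with hairpin 2 lay below the highest control, and the log2 fold change was 0.33 (SE 0.095) with an adjusted p of 0.0716, or 0.00173 with the block.

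Kmt2a, the founding member of the family, had 84.4, 111, 108 and 92.1 CPM in hairpin 2 libraries, against 84.7, 94.7, 94.5 and 79.4 CPM in control 2 libraries, a log2 fold change of 0.16 (SE 0.098, adjusted p = 0.404, or 0.0443 with the block). The groups overlapped, and replicate 1 was the pair without a difference. The other 4 genes grouped as H3K4 methyltransferases, Kmt2e among them by its family, were not called with or without the block. Kmt2b averaged 158 ± 10.3 CPM in hairpin 2 and 160.3 ± 6.42 CPM in control 2 (SD, n = 4 each), and Kmt2d, the partner of Kmt2c at enhancers, 151 ± 27.8 CPM in hairpin 2 and 139 ± 8.61 CPM in control 2. Kmt2e averaged 234 ± 33.4 CPM in hairpin 2 and 222 ± 30.8 CPM in control 2, and Setd1a 42.9 ± 2.92 CPM in hairpin 2 and 43.4 ± 3.84 CPM in control 2. In all 4 genes the means differed by less than the larger SD.

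Among H3K36 methyltransferases, Nsd1 had 131, 151, 152 and 160.2 CPM in hairpin 2 libraries, against 120.0, 132, 118 and 122 CPM in control 2 libraries. Replicate 1 with hairpin 2 overlapped the highest control library, and the log2 fold change was 0.27 (SE 0.070, adjusted p = 0.0488). Nsd2, which writes H3K36 dimethylation, had 289.8, 305, 300.0 and 318 CPM in hairpin 2 libraries, against 257, 278, 264 and 244 CPM in control 2 libraries. Its groups did not overlap, and the log2 fold change was 0.22 (SE 0.057) with an adjusted p of 0.0536, or 0.00762 with the block. Setd2, which writes H3K36 trimethylation, averaged 151 ± 20.1 CPM in hairpin 2 and 140.2 ± 16.5 CPM in control 2. It was not called with or without the block alone. Setd2 was called higher with block and chromosome offset together, and with the block and without both replicate 4 libraries. Nsd3 had a log2 fold change of 0.02 (SE 0.056).

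Ezh1 and Ezh2 are the PRC2 enzymes, and the difference between them was not tested. Ezh1 had 108, 106, 96.2 and 108 CPM in hairpin 2 libraries, against 115, 110.5, 113 and 127 CPM in control 2 libraries. The groups did not overlap, and the log2 fold change was -0.15 (SE 0.063) with an adjusted p of 0.208, or 0.0380 with the block and 0.0673 with block and chromosome offset together. Ezh2 averaged 118 ± 18.6 CPM in hairpin 2 and 109.6 ± 15.3 CPM in control 2, a log2 fold change of 0.11 (SE 0.13). It was not called without the block or with the block alone, where its unadjusted p was under 0.05. With the block and without both replicate 4 libraries, Ezh2 was called higher. In set 1, Ezh2 averaged 147 ± 29.4 CPM in hairpin 1 and 145 ± 33.1 CPM in control 1 (SD, n = 3 each).

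**Figure D4:**
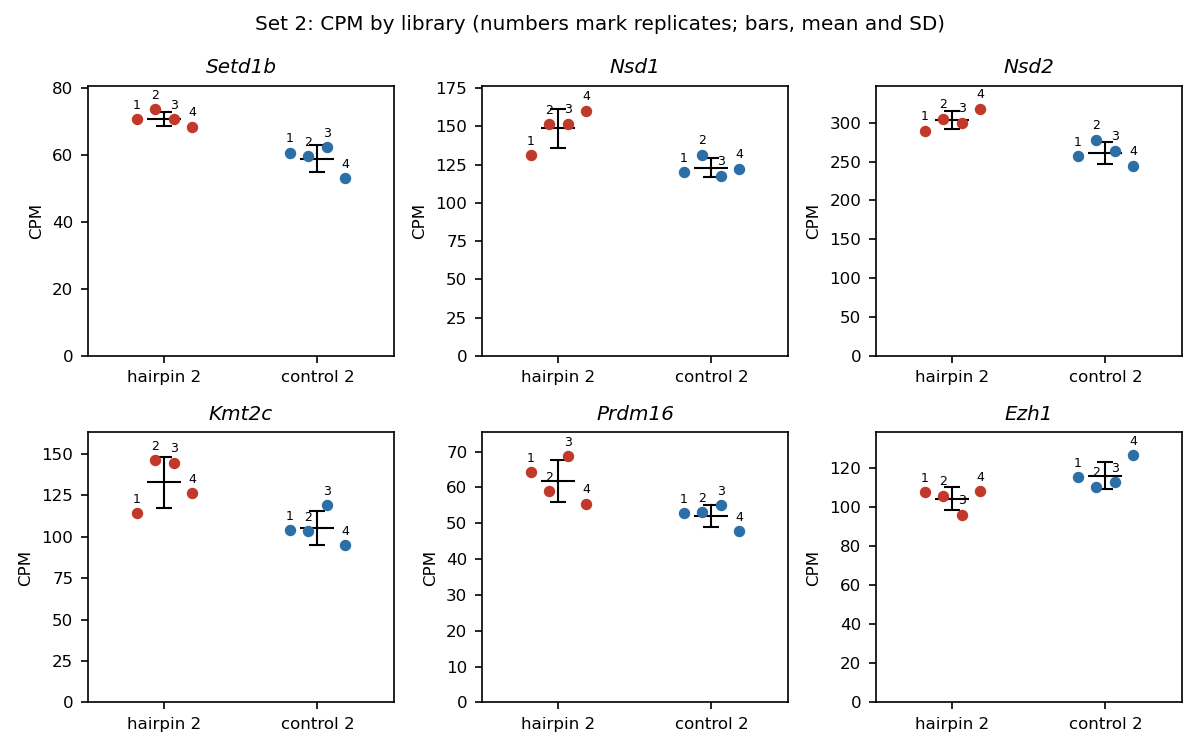
CPM of 6 members in each library of set 2, hairpin 2 on the left in red and control 2 on the right in blue, with replicate numbers beside the points and black bars for mean and SD (n = 4 each). The groups are parted for Setd1b, Nsd2 and Prdm16, with hairpin 2 higher, and for Ezh1, with hairpin 2 lower, and they overlap for Nsd1 and Kmt2c.

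Outside these families, Setd6, which methylates the NF-kappa-B subunit RelA, had 27.2, 28.4, 24.0 and 26.98 CPM in hairpin 2 libraries, against 34.7, 31.9, 31.9 and 28.0 CPM in control 2 libraries. The pair of replicate 4 differed least, and the log2 fold change was -0.24 (SE 0.083) with an adjusted p of 0.135, or 0.0285 with the block. Setd7, which methylates H3K4 and several other proteins, had 127, 127, 137 and 119 CPM in hairpin 2 libraries, against 112, 117, 124 and 96.9 CPM in control 2 libraries, a log2 fold change of 0.18 (adjusted p = 0.243, or 0.0127 with the block). Each hairpin 2 library lay above the control of its own number. None of the 4 SMYD genes was called. Smyd5 had 31.6, 31.8, 28.6 and 28.1 CPM in hairpin 2 libraries, against 32.0, 36.1, 32.8 and 35.8 CPM in control 2 libraries, with no overlap and an adjusted p of 0.195, or 0.0673 with the block.

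Of the PRDM genes, Prdm16, a transcriptional regulator known from brown fat, had 64.2, 59.0, 68.7 and 55.5 CPM in hairpin 2 libraries, against 52.8, 53.0, 55.0 and 47.7 CPM in control 2 libraries. The groups did not overlap, and the log2 fold change was 0.24 (SE 0.078, adjusted p = 0.105, or 0.00536 with the block). In set 1 the gene was near the detection limit, at 0.175, 0.955 and 0.848 CPM in hairpin 1 libraries and 1.75, 1.36 and 0.410 CPM in control 1 libraries. Prdm1 had 302, 282, 298 and 221 CPM in hairpin 2 libraries, against 258, 239, 284 and 216 CPM in control 2 libraries, a log2 fold change of 0.15 (adjusted p = 0.533, or 0.0498 with the block). The levels in both sets were not set against each other by a test, since the sets were counted over different gene lists.

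Among demethylases none passed in edgeR without the block and with all libraries, while limma voom called Kdm2b (adjusted p = 0.0357), Kdm4b (0.0160) and Kdm6b (0.0458). Kdm2b, an H3K36 demethylase that brings a Polycomb complex to CG-rich promoters, had 67.6, 71.8, 72.0 and 47.0 CPM in hairpin 2 libraries, against 58.5, 58.0, 61.9 and 41.7 CPM in control 2 libraries. Replicate 4 was low in both groups, and the adjusted p was 0.454 without the block and 0.00606 with it, for a log2 fold change of 0.23. The gene lies on chromosome 5, and with block and chromosome offset together the fold change was 0.11 (adjusted p = 0.146). Kdm4a, an H3K9 and H3K36 demethylase, had 137, 135, 136 and 168 CPM in hairpin 2 libraries, against 125, 121, 126 and 142 CPM in control 2 libraries (log2 fold change 0.16, adjusted p = 0.313, or 0.0183 with the block). Its relative Kdm4b had 167, 175, 162 and 145 CPM in hairpin 2 libraries, against 153, 142, 151 and 138 CPM in control 2 libraries (log2 fold change 0.16, adjusted p = 0.231, or 0.0387 with the block). Both were higher with hairpin 2 in all 4 pairs.

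Kdm6b had 350.3, 339.6, 345 and 361 CPM in hairpin 2 libraries, against 317, 296, 336 and 324 CPM in control 2 libraries, with no overlap and a log2 fold change of 0.13 (SE 0.055, adjusted p = 0.208, or 0.0438 with the block). Kdm7a had 183, 194, 214 and 158 CPM in hairpin 2 libraries, against 166, 167, 186 and 156 CPM in control 2 libraries, a log2 fold change of 0.15 (adjusted p = 0.424, or 0.0428 with the block). For Kdm7a the pair of replicate 4 hardly differed. The H3K9 demethylases Kdm3a and Kdm3b lay below 0 with hairpin 2, at -0.17 (SE 0.13) and -0.10 (SE 0.058), and the H3K4 demethylases lay between -0.02 and 0.05. None of these 5 was called with or without the block.

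Groups did not overlap in set 2 for 6 of 45 members, 4 higher (Kdm6b, Nsd2, Prdm16 and Setd1b) and 2 lower (Ezh1 and Smyd5), where 15.3% of genes tested did not overlap (6.88% higher and 8.42% lower). No member parted from its control in both sets in the same direction, where 1.61% of the 12384 genes tested in both did (0.791% higher and 0.816% lower). The sign of the change was the same with both hairpins for 25 of 44 members. The share over all genes was not taken, so this count cannot be set against a background. With hairpin 1, 28 of the 44 lay above 0, and 10 did without its replicate 1.

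Several of the higher members lie on chromosomes that were higher as a whole with hairpin 2. Genes averaging at least 5 CPM had median log2 fold changes of 0.12 on chromosome 5, 0.13 on chromosome 12 and 0.19 on chromosome 13. The 7 tested members there, Kmt2c, Kmt2e, Nsd2, Kdm2b and Setd1b on chromosome 5, Setd3 on chromosome 12 and Nsd1 on chromosome 13, all lay above 0 (median 0.23), beside 23 of the 38 members on other chromosomes (median 0.05). With an offset per library and chromosome no member was called, where 672 genes were (4.76%), and 9 members had an unadjusted p under 0.05, where 17.3% of genes did. Setd1b then had a log2 fold change of 0.15 (adjusted p = 0.233) and Nsd1 one of 0.09 (adjusted p = 0.599). With block and offset together 10 of 45 members were called, 9 higher and 1 lower, beside 16.7% of all genes (7.04% higher and 9.68% lower), and neither Setd1b (adjusted p = 0.0559) nor Nsd1 (0.263) was among them, while Kmt2c (0.0204), Setd6 (0.0354), Prdm16 (0.0209), Kdm6b (0.0274) and Setd7 (0.00799) were. Of the members called with the block, Kdm2b (0.146), Nsd2 (0.172), Ezh1 (0.0673) and Kdm4a (0.0971) also lost the call. Setd2, which was not called with the block alone, gained one. A gene's own change and a change of its whole chromosome in these lines cannot be told apart for Setd1b and Nsd1.

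**Figure D5:**
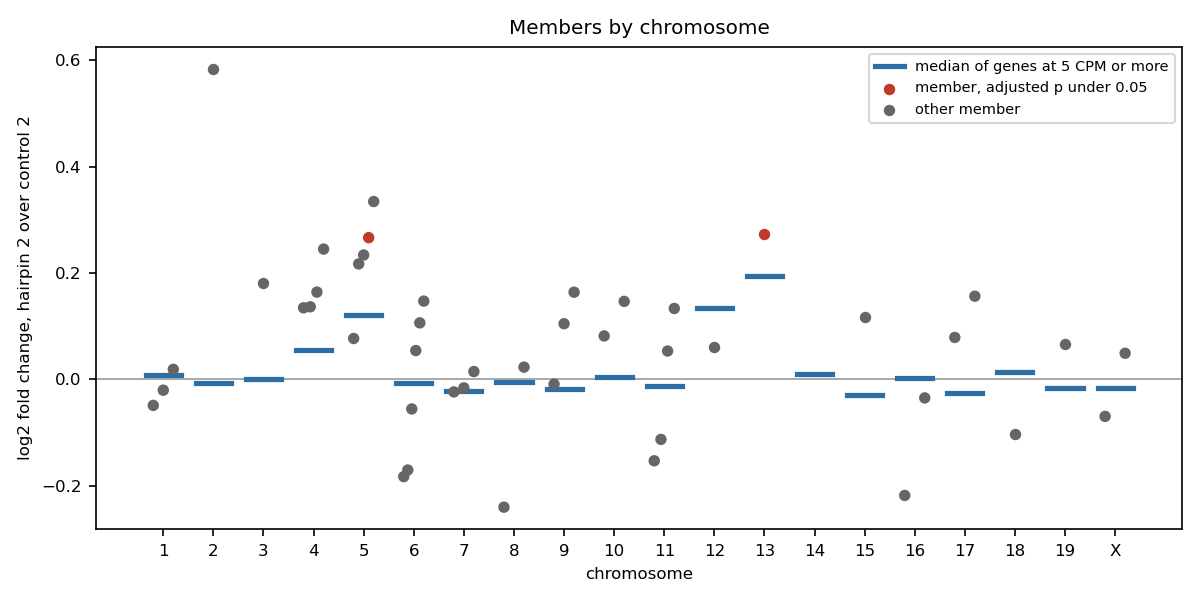
Log2 fold change of each tested member, hairpin 2 over control 2, by chromosome, with blue bars for the median of genes averaging at least 5 CPM on that chromosome. The medians of chromosomes 5, 12 and 13 (0.12, 0.13 and 0.19) lie above those of the other chromosomes, and Setd1b and Nsd1 (red) lie on chromosomes 5 and 13.

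Both calls were lost in most fits with 1 library fewer, while the fold changes moved little, from 0.22 to 0.29 for Setd1b and from 0.23 to 0.33 for Nsd1. Setd1b kept an adjusted p under 0.05 in 1 of 8 fits, the one without hairpin 2 replicate 4 (0.0212 to 0.119 over the 8), and Nsd1 in 1 of 8, the one without hairpin 2 replicate 1 (0.0236 to 0.138). Without hairpin 2 replicate 4, 5 of 45 members were called, all higher, beside 9.84% of genes in either direction and 3.94% higher. Without both replicate 4 libraries 11 of 45 members were called, 10 higher and 1 lower, beside 16.9% of all genes (7.93% higher and 9.02% lower), Setd1b and Nsd1 among them. With the block as well, 19 of 45 were called, 17 higher and 2 lower, beside 3529 genes (12.6% higher and 12.4% lower of all tested).

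The tools differed for the same libraries. DESeq2's Wald test called 4 members, Kmt2c, Nsd1, Nsd2 and Setd1b, all higher, beside 8.28% of genes in either direction and 3.36% higher. With limma voom and library quality weights 11 of 45 were called, 10 higher and 1 lower, beside 17.5% of genes (8.16% higher and 9.30% lower). The call of Nsd1 lay at the threshold: with DESeq2's size factors in place of TMM its adjusted p was 0.0502, and with no filter on low counts 0.0514. The model of all 14 libraries, whose spread is shared with set 1, called neither Nsd1 nor Setd1b (adjusted p of 1.00 for both), at log2 fold changes of 0.27 and 0.26.

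In the model of all 14 libraries no member was called for the average of both hairpins, where 147 of 15043 genes were (0.977%), and 6 members had an unadjusted p under 0.05, where 15.5% of genes did. No member was called for the difference between hairpins (hairpin 2 effect minus hairpin 1 effect), where 62 genes were (0.412%). Prdm10 (-0.87, SE 0.34), Kdm6a (-0.73, SE 0.29) and Nsd2 (0.31, SE 0.14) had an unadjusted p under 0.05 for the difference, where 1808 genes did, with adjusted p of 0.326, 0.341 and 0.402. DESeq2 called no member for either, where it called 724 and 398 genes.

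Both results changed without replicate 1 of hairpin 1. For the average, 5 of 45 members were then called, Kdm6b, Kmt2b, Prdm1 and Smyd2 lower and Prdm11 higher, beside 8.62% of genes (3.91% higher and 4.71% lower). Prdm11 failed the filter in set 1, averaging 0.14 CPM in control 1 and 0.74 CPM in hairpin 1 without replicate 1. Its call thus rests on low counts. With 1 set 2 library fewer, hairpin 2 gave positive log2 fold changes for Kdm6b (0.10 to 0.16) and Prdm1 (0.08 to 0.24). Those of Kmt2b (-0.05 to 0.02) and Smyd2 (-0.03 to 0.07) varied in sign. The lower averages were thus not shared by both hairpins. For the difference, 4 of 45 were called, all with the higher effect in hairpin 2, beside 6.26% of genes in either direction and 2.28% in that one: Kdm6b (1.03, adjusted p = 0.00169), Prdm1 (2.30, 0.00519), Kmt2b (0.64, 0.0192) and Smyd2 (0.66, 0.0300). Smyd2, a methyltransferase of p53 and other proteins, had 67.8, 36.3 and 43.0 CPM in hairpin 1 libraries, against 69.1, 56.9 and 65.2 CPM in control 1 libraries. Its replicates 2 and 3 lay below all controls and replicate 1 lay among them.

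Partners of these enzymes were described from lists of PRC2 subunits, COMPASS subunits (the complexes that hold the KMT2 and SETD1 enzymes), enzymes the symbol pattern left out, and H4K20 and H3K9 enzymes. With hairpin 1 none of the genes tested in these lists was called. With hairpin 2, 0 of 10 PRC2 subunits, 0 of 4 shared COMPASS subunits, 1 of 8 specific COMPASS subunits, 3 of 13 enzymes outside the pattern and 0 of 9 H4K20 and H3K9 enzymes were called, beside 6.05% of all genes. With the block these counts were 2, 1, 2, 3 and 2, beside 20.4% of all genes. Psip1, which tethers KMT2A complexes to chromatin, was higher at 95.5, 94.3, 101 and 89.2 CPM in hairpin 2 libraries, against 73.6, 79.5, 76.8 and 67.3 CPM in control 2 libraries (log2 fold change 0.35, SE 0.066, adjusted p = 0.0123). Its groups did not overlap, and with the offset per chromosome the adjusted p was 0.0260.

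Enzymes outside the pattern moved in both directions with hairpin 2. Phf2, a demethylase with a JmjC domain, rose (log2 fold change 0.27, SE 0.046, adjusted p = 0.00660) and so did Kdm1b, a flavin-dependent H3K4 demethylase (0.27, SE 0.055, adjusted p = 0.0165). Both lie on chromosome 13, and neither was called with the offset per chromosome (adjusted p = 0.336 and 0.452). Mecom, which encodes a PR-domain zinc finger protein also known as Prdm3, fell to 20.3, 19.3, 21.2 and 17.4 CPM in hairpin 2 libraries, against 33.8, 37.1, 38.1 and 32.0 CPM in control 2 libraries. The groups lay far apart, and the log2 fold change was -0.85 (SE 0.086, adjusted p = 0.000342), also with the offset (0.000251). With hairpin 1, Mecom had 162, 82.5 and 77.0 CPM against 75.4, 62.3 and 37.7 CPM in control 1, a log2 fold change of 0.88 (SE 0.38) that was not called, and the difference between hairpins was -1.73 (SE 0.37, adjusted p = 0.0640, or 0.0102 without replicate 1 of hairpin 1).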

How the data were processed

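Stranded libraries of poly(A) RNA were sequenced, per the labels' protocols. Each library has 1 deposited file of counts per gene, and these are whole numbers that the authors left unscaled. The submitters' processing notes name bcl2fastq 2.20, FastQC, STAR, featureCounts, DESeq2 and the build GRCm38, without their settings. Symbols, positions and exon lengths are those of GENCODE M21 (GRCm38). The members and all lists were chosen with earlier results of these data known, and most alternatives with them.

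The counts of each set were fitted on their own in edgeR 4.0.16 (R 4.3.3) with TMM scaling after filterByExpr, and tested by quasi-likelihood with Benjamini-Hochberg adjustment over all genes tested, at a threshold of 0.05. The mean of both hairpin effects and their difference came from 1 model of all 14 libraries with a term for each group. CPM are counts over TMM-scaled totals of each set, not corrected for length. Per-library ratios added 0.5 CPM. Within a group, every pair of libraries differed by more than sampling noise, with a chi-square per gene of at least 21.8 in set 1 and 2.84 in set 2. Standard errors of fold changes cover the spread between libraries, and total counts of 9272134 to 26284079 limit precision for the lowest members.

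Same-numbered libraries of set 2 correlated in their deviations from the group means at 0.249, 0.153, 0.247 and 0.598. Each value exceeds 0.1, and the numbers were therefore read as pairs. This pairing rests on the data: pairs of unlike number, replicate 4 aside, gave 0.108 to 0.216, and hairpin 2 replicate 2 correlated more with control 2 replicate 1 (0.195) than with replicate 2, so replicate 4 alone stands out. In set 1 they correlated at 0.231, -0.017 and 0.269 and were not taken as pairs.

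The fits were repeated with size factors of DESeq2, without the filter, with the Wald test of DESeq2 1.42.0, with the replicate block and in the 14-library model. They were also repeated with an offset per library and chromosome (the median deviation of genes averaging at least 5 CPM), with limma voom and quality weights (limma 3.58.1), and without single libraries or both replicate 4 libraries in set 2. The block together with the offset, and the block without both replicate 4 libraries, were added after seeing the data. Members named with values in every library were those called in any comparison with or without the block, the 5 with the smallest p for each hairpin and any whose groups parted in both sets (none). Prdm1, Kdm6b, Kdm5c, Kmt2b, Kmt2e, Kdm5b and Smyd2 in set 1 and Smyd5 in set 2 were added after their values were seen, as were the partner genes. The fits were tested on simulated data. Figures used Python 3.11.15, pandas 2.3.3 and matplotlib 3.10.9.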

Additional observations from a re-analysis of the deposited data

Results flagged for a closer look

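In 1 of 38 groups of 4 libraries examined among the named members, 1 library lay farther from the rest than the range of the others allows by Dixon's test at the 95% level, where chance gives about 1 in 20, or 1.9 groups. This was Kdm4a in hairpin 2 replicate 4, at 168 CPM (167.9) against 135 to 137 CPM in the other hairpin 2 libraries. In control 2, replicate 4 was also the highest for this gene, at 142 CPM.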

How the results depend on the processing

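With hairpin 1 no member was called under any alternative, while the count of all genes called was 0 in the reported fit, 16 with DESeq2's Wald test, 187 in the model of all 14 libraries, 8 with limma voom and 0 to 1 when single libraries were left out. With hairpin 2, 854 genes and 2 members were called. The genes and members were 2880 and 15 with the replicate block, 1319 and 4 with DESeq2, 120 and 0 in the model of all 14 libraries, 2466 and 11 with limma voom, 2396 and 11 without both replicate 4 libraries, 2363 and 10 with block and chromosome offset together, and 3529 and 19 with the block and without both replicate 4 libraries. Members called were 1 with DESeq2's size factors, 1 with no filter and 0 with the chromosome offset. Leaving out single libraries gave 453 to 1409 genes and 0 to 5 members, the highest in both without hairpin 2 replicate 4. The cause of these moves was not tested. For the average, 147 genes were called, against 724 with DESeq2 and 42 to 1320 with a library left out, and members ranged from 0 to 5. For the difference, 62 genes were called, against 398 with DESeq2 and 27 to 959 with a library left out, and members ranged from 0 to 4. The highest of each came without hairpin 1 replicate 1. In set 1 the numbers were not taken as pairs. Replicates 1 and 3 correlated with their own numbers at 0.231 and 0.269, but hairpin 1 replicate 2 correlated best with control 1 replicate 3. The block left 0 genes and 0 members called, as did the fit without it, so these counts cannot show whether the libraries are paired. The 15 members called with hairpin 2, with or without the block, kept their sign under every alternative of that comparison. For the average and the difference, Kdm6b and Prdm1 turned: without hairpin 1 replicate 1 the averages were -0.38 and -1.01, against 0.18 and 0.54 with all libraries, and the differences were 1.03 and 2.30, against -0.10 and -0.79. Of the single-gene values under alternatives, 258 stayed on their side of the threshold, 55 passed it only there and 22 lost it. Depth limits Kdm4d, Kdm4dl, Prdm8 and, in set 1, Prdm11, which were too low to test.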

Other observations

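Prdm8, which failed the filter in both sets and shares 29.1% of its exon bases with the antisense gene A730035I17Rik, had 54 counts in hairpin 1 replicate 1 and 0 to 3 counts in every other library of both sets. Prdm14, listed in set 1 alone, had 0 counts in the same library, and 13 to 41 counts in the other libraries of set 1. Kdm5d and Uty, Y-linked demethylase genes, had 0 counts in all 6 libraries of set 1. Goblet cell markers summed to 26.9 to 723 CPM in hairpin 1 libraries, against 306 to 462 CPM in control 1 libraries, and Paneth cell markers to 73.6 to 2080 CPM in hairpin 1, against 839 to 1776 CPM in control 1. Without replicate 1 of hairpin 1 all 5 goblet cell markers lay above 0 (median 0.74), and none was called.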
